A study of Mus musculus with 1646 samples.

Results

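The 9 genes described here make, carry, remove and sense retinoic acid in mesenchymal cells of the mouse colon: *Rdh10*, *Aldh1a1*, *Aldh1a2*, *Aldh1a3*, *Crabp1*, *Cyp26b1*, *Rara*, *Rarb* and *Rarg*. They were picked by name from the pathway, by matching the Ensembl identifier of each row of the count table to its symbol in the GENCODE vM21 annotation, and are 9 of 46517 genes in the table. The cells came from the colons of male mice aged 10 to 20 weeks, were sorted singly into multi-well plates and were sequenced with the SmartSeq2 method, which reads whole transcripts and carries no molecular identifiers. The table held 1646 cells on 9 plates and 4 reporter lines, each with a fluorescent protein that reports activity of the gene in its name: PdgfrbGFP (761 cells, 4 plates, a bacterial artificial chromosome transgene), Acta2GFP (567 cells, 2 plates, a transgene), PdgfraGFP (13.8% of the cells, 2 plates, a nuclear protein inserted at *Pdgfra*) and Cspg4dsRED (91 cells, 1 plate, a transgene). No line carried a treatment. Tissue of Acta2GFP was additionally digested with elastase, so line and enzyme cannot be told apart, and neither can line and plate for Cspg4dsRED. Sorting kept reporter- or PDGF receptor-positive cells without the endothelial marker CD31, and cells without *Pdgfra* or *Pdgfrb* transcripts had been removed, so the cells are a selected part of the colon stroma.

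Vitamin A enters cells as retinol. Retinol dehydrogenases such as RDH10 oxidise it reversibly to retinaldehyde, and the ALDH1A enzymes then oxidise retinaldehyde irreversibly to retinoic acid. CRABP proteins carry retinoic acid in the cytoplasm, CYP26 enzymes degrade it, and the nuclear receptors RARα, RARβ and RARγ, paired with RXR receptors, bind DNA and change transcription when retinoic acid is present. In the intestine retinoic acid is known for its effects on gut-homing lymphocytes, regulatory T cells, IgA and epithelial differentiation.

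The labels assign each cell to 1 of 8 clusters, which the authors drew from these same counts. Tests between clusters are therefore not independent of how the clusters were made. Clusters 1, 2, 5, 6 and 7 (29.3%, 7.96%, 25.8%, 2.73% and 13.5% of the cells) were fibroblasts and clusters 3, 4 and 8 (8.57%, 8.63% and 3.40%) mural cells, a class that here joins pericyte-like and smooth muscle-like cells. The markers fitted that division: summed *Pdgfra*, *Col1a1* and *Lum* lay between 2591 and 3846 counts per 500000 in every sum of the fibroblast clusters and between 91.1 and 652 in the mural clusters. *Tnc* and *Cd34*, which the study used as markers along the crypt axis, separated the fibroblasts. For clusters 2, 1, 6, 5 and 7 the mean *Tnc* level was 1972, 542, 421.4, 54.5 and 16.9, whereas *Cd34* was 41.3, 595, 30.2, 1026 and 1293 in the same order. Cluster 4 was pericyte-like (*Rgs5* 3262), cluster 3 smooth muscle-like (*Myh11* 1856), and cluster 8 smooth muscle-like with *Hhip* (1339) and *Rgs10* (470).

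A level below is a mean over the cells of 1 line in 1 cluster, after scaling each cell to 500000 gene counts. The 21 combinations of line and cluster with at least 10 cells were used, from 3 lines in clusters 1, 2, 3 and 7, 4 in cluster 5, 2 in clusters 4 and 6 and 1 (Acta2GFP) in cluster 8. Gene counts per cell ranged from 47598 to 1494292 with a median of 248628. The labels name no mouse, so 1 line was 1 sample and p-values measure the spread between lines. Over the 21 combinations the markers of other cells summed to 4.26 to 31.3 for endothelium, 0 to 26.6 for immune cells, 0.185 to 32.4 for epithelium, 0.0592 to 4.46 for glia and 0 to 0.00788 for mesothelium. The pair *Kit* and *Ano1*, markers of interstitial cells of Cajal, summed to 98.1 to 447.2 in clusters 2, 3 and 4 and to at most 54.01 elsewhere. Nearly all of it was *Ano1*, since *Kit* reached at most 26.5, in 1 line of cluster 3.

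Promoter sequences were searched for a repeat of the kind that the receptors bind. RefSeq windows on build GRCm38.p6, reaching from 250 bases before to 50 bases after a start, were matched for 7 of the 9 genes at 12 starts. Receptors bind direct repeats of a short site, and both strands were searched for 2 such sites in the same orientation 5 bases apart. Other spacings and bases outside the windows were not searched, so a gene without the repeat is not shown to lack a site. A site was AGGTCA, or alternatively AGTTCA, or otherwise GGGTCA, or finally GGTTCA, and 32 of 32851 windows held the repeat (0.0974%). *Rarb* was the only one of the 7 genes with such a window, 53 to 37 bases before its start, and its response element is the textbook one. The first line gives the 120 bases before that start with the repeat and its spacer in capitals (chr14:16575477-16575596, minus strand). The other 2 lines show the enzymes on which the results turn, *Aldh1a1* at the second of its starts (chr19:20601848-20601967, plus strand) and *Aldh1a2* (chr9:71215669-71215788, plus strand). Both hold an ATGCAAAT and a CCAAT, in capitals, and these 2 motifs were chosen on reading the windows. CCAAT was in 37.4% of all windows, ATGCAAAT in 1.74% and both in 0.858%. ATGCAAAT begins 56 bases before the *Aldh1a1* start and 84 before that of *Aldh1a2*, and CCAAT 72 and 36 bases before. A match is a description of letters, not a measured site.
Rarb: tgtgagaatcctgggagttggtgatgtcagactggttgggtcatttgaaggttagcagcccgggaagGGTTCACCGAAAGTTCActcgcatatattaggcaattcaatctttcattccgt
Aldh1a1: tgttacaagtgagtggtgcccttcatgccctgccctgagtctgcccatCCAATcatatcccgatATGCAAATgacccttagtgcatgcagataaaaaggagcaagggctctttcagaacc
Aldh1a2: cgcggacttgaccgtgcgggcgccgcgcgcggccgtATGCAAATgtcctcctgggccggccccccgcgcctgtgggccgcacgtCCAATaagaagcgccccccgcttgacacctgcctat

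**Figure D1:**
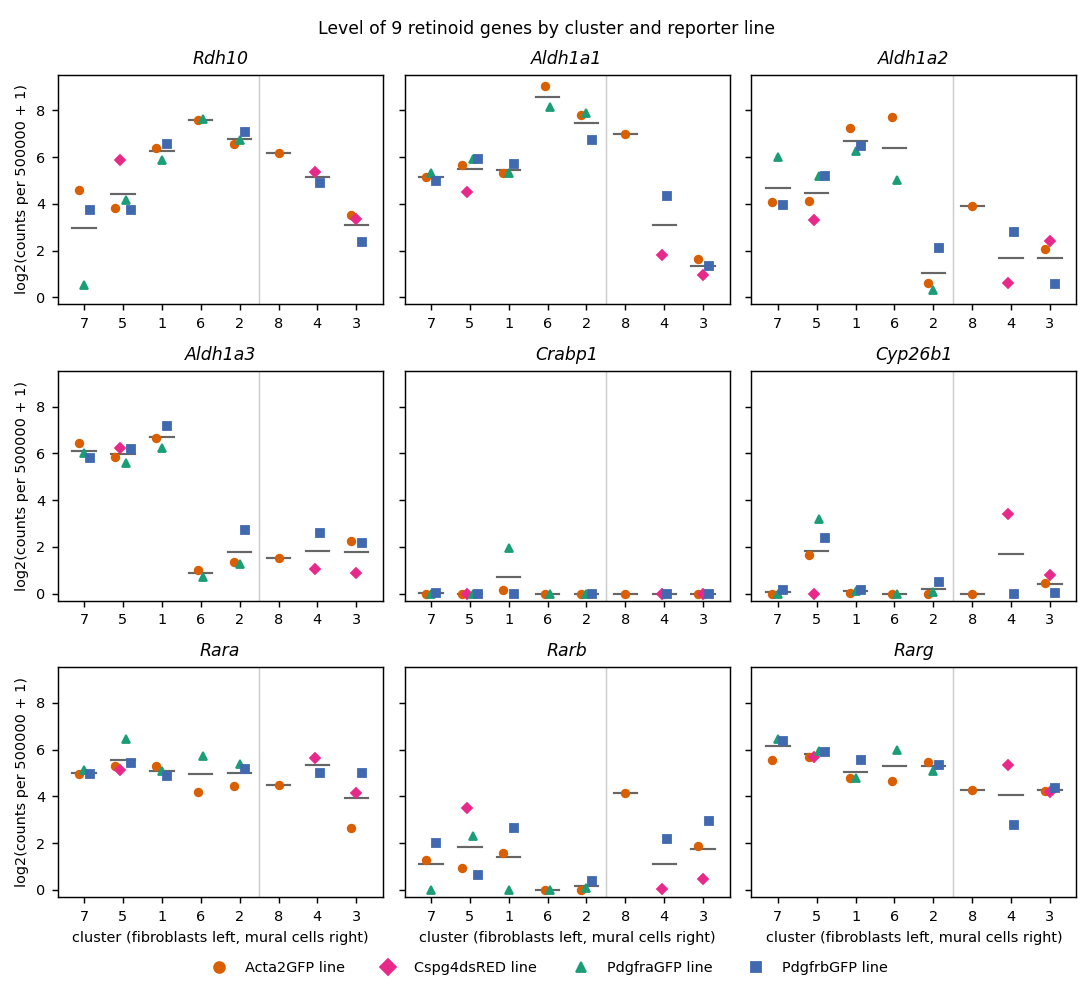
Level of the 9 genes, as log2(counts per 500000 + 1), in each cluster (horizontal axis, fibroblasts left of the grey line and mural cells right). Each point is 1 reporter line and each bar the mean of the plotted points. *Aldh1a1* peaks in clusters 6 and 2, *Aldh1a3* is high in clusters 7, 5 and 1 alone, and *Crabp1* is near 0 outside 1 line of cluster 1.

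*Rdh10*, which makes the retinaldehyde that the ALDH1A enzymes use, was high in 3 of the 5 fibroblast clusters and in cluster 8 (ENSMUSG00000025921, chromosome 1, 16105774 to 16133734, plus strand). In cluster 6 its level was 190 in Acta2GFP and 195.7 in PdgfraGFP, whose 2 plates gave 324.8 (14 cells) and 45.05 (12 cells). Cluster 2 had 93.5 in Acta2GFP, 105.9 in PdgfraGFP and 132.3 in PdgfrbGFP. In cluster 1 the values were 82.6, 57.7 and 92.6 for the same lines. Both lines of cluster 6 stood above those of cluster 2 in these means over cells, but from summed counts the lines overlapped, at 134.3 and 119.5 in cluster 6 and 84.6 to 125.5 in cluster 2. The lowest line of cluster 2 lay just above the highest of cluster 1 in means over cells, and from summed counts these clusters overlapped as well, with 52.3 to 109.1 in cluster 1. Clusters 5 and 7, with high *Cd34*, had less. Acta2GFP, PdgfraGFP and PdgfrbGFP gave 13.2, 16.7 and 12.4 in cluster 5, where Cspg4dsRED gave 58.4 from 13 cells, and 23.3, 0.442 and 12.3 in cluster 7. Among mural cells, cluster 8 had 72.02, and cluster 4 had 40.3 in Cspg4dsRED and 28.7 in PdgfrbGFP. The PdgfrbGFP plates with at least 10 cells of cluster 4 differed, at 56.2 (49 cells) and 3.62 (47 cells). Cluster 3 had 10.4, 9.18 and 4.23 in Acta2GFP, Cspg4dsRED and PdgfrbGFP. By mean the order was 6 (192.6), 2 (110.6), 1 (77.7), 8 (72.02), 4 (34.5), 5 (25.2), 7 (12.03) and 3 (7.94), and the ranges of neighbours in means over cells overlapped for clusters 1 and 8, 4 and 5, 5 and 7, and 7 and 3.

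*Aldh1a1*, 1 of the 3 retinaldehyde dehydrogenases, was highest in clusters 6, 2 and 8 (ENSMUSG00000053279, chromosome 19, 20492715 to 20643465, plus strand). Cluster 6 had 521 in Acta2GFP and 282.3 in PdgfraGFP, and cluster 2 had 222.1 in Acta2GFP, 232.2 in PdgfraGFP and 104.8 in PdgfrbGFP. The single line of cluster 8 had 125.7, inside the range of cluster 2. Clusters 5, 1 and 7 overlapped one another. Cluster 5 had 49.6, 21.5, 59.1 and 58.7 in Acta2GFP, Cspg4dsRED, PdgfraGFP and PdgfrbGFP. Cluster 1 had 38.6, 39.1 and 51.3 and cluster 7 had 34.5, 38.7 and 30.7 in the 3 lines other than Cspg4dsRED. The remaining mural clusters were lowest, at 2.55 (Cspg4dsRED) and 19.5 (PdgfrbGFP) in cluster 4 and 2.14, 0.9496 and 1.56 in cluster 3. The means ran 6 (401.7), 2 (186.4), 8 (125.7), 5 (47.2), 1 (43.01), 7 (34.6), 4 (11.02) and 3 (1.55), and ranges overlapped between clusters 2 and 8 and among 5, 1 and 7. *Aldh1a7*, a near copy of *Aldh1a1*, had 18 counts in 13 cells, and whether reads were split between the copies was not tested.

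*Aldh1a2* (ENSMUSG00000013584, chromosome 9, 71215789 to 71296243, plus strand), the second of these enzymes, was highest in clusters 6 and 1. Cluster 1 had 151.8, 76.4 and 87.98 in Acta2GFP, PdgfraGFP and PdgfrbGFP. Cluster 6 had 210.8 in Acta2GFP and 31.4 in PdgfraGFP, so the range of cluster 6 spanned that of cluster 1. The 2 PdgfraGFP plates also differed there, at 1.89 (14 cells) and 65.8 (12 cells). Lower values were found in cluster 7 (15.7, 63.5 and 14.5) and cluster 5 (16.6, 8.94, 35.6 and 35.3 with Cspg4dsRED second). Cluster 2 was nearly without *Aldh1a2*, at 0.539, 0.260 and 3.38. Cluster 8 had 13.8, and clusters 4 and 3 had 0.542 to 5.87 and 0.468 to 4.33. The means ran 6 (121.1), 1 (105.4), 7 (31.2), 5 (24.1), 8 (13.8), 4 (3.21), 3 (2.67) and 2 (1.39). Ranges were apart only between clusters 1 and 7 and between clusters 8 and 4 in that order.

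*Aldh1a3* split the cells into a high and a low set (ENSMUSG00000015134, chromosome 7, 66390890 to 66427517, minus strand). Cluster 1 had 100 in Acta2GFP, 72.8 in PdgfraGFP and 142.7 in PdgfrbGFP. Cluster 7 had 86.1, 63.8 and 55.03 in the same lines, and cluster 5 had 56.3, 46.9 and 70.9 with 73.7 in Cspg4dsRED. The 3 clusters overlapped one another. In the other 5 clusters no line exceeded 5.62, the value of PdgfrbGFP in cluster 2, where Acta2GFP and PdgfraGFP had 1.59 and 1.40. Cluster 6 was the lowest by mean, with 1.03 and 0.652, although its cells carry the fibroblast markers. Mural levels were 1.86 in cluster 8, 1.06 and 4.99 in cluster 4 and 3.804, 0.855 and 3.51 in cluster 3. Neighbours within each set overlapped apart from clusters 8 and 6, and no line fell between 5.62 and 46.9.

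Set side by side per kb of transcript, the 3 enzymes gave each group of clusters its own mix. *Aldh1a1* made up 97.4% ± 3.43 (SD, n = 3 lines) of their summed level in cluster 2, 79.9% ± 13.6 (n = 2) in cluster 6 and 88.9% in the single line of cluster 8. In cluster 1 *Aldh1a2* had 48.3% ± 10.8, *Aldh1a3* 32.03% ± 7.66 and *Aldh1a1* 19.7% ± 4.54 (n = 3). In clusters 5 and 7 *Aldh1a3* had 39.4% ± 15.9 (n = 4) and 42.8% ± 12.3 (n = 3), and *Aldh1a1* 40.1% ± 9.51 and 31.4% ± 5.37, within the spread of lines. Summed per kb, the 3 enzymes came to 224.1 ± 127.7 for cluster 6, 95.4 ± 21.3 for cluster 1 and 80.5 ± 28.6 for cluster 2. Cluster 8 reached 59.9, with 48.7 ± 11.6 for cluster 5, 48.3 ± 13.9 for cluster 7, 6.97 ± 7.55 for cluster 4 and 2.63 ± 0.777 for cluster 3. Clusters 1 and 2 thus had overlapping totals made of different enzymes.

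**Figure D2:**
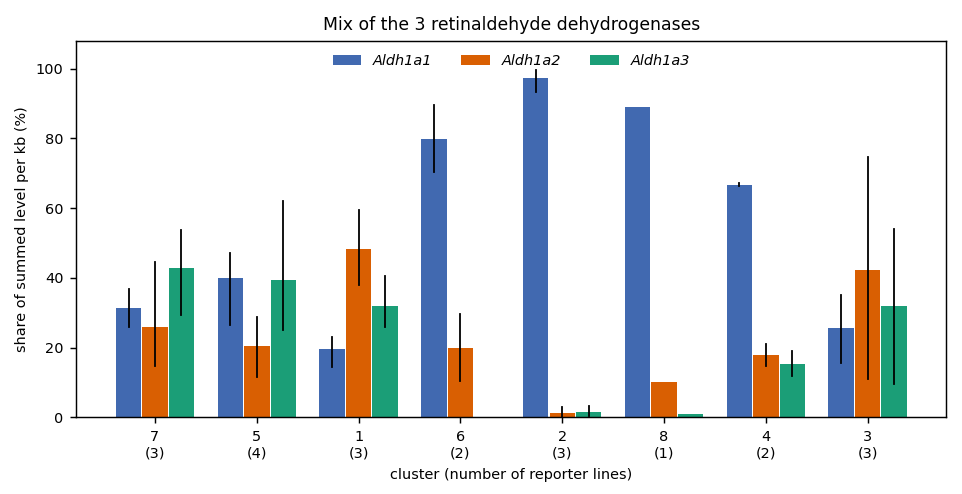
Share of *Aldh1a1*, *Aldh1a2* and *Aldh1a3* in their summed level per kb (vertical axis, %) in each cluster, with the number of lines in brackets. Bars are means over lines and black lines join the lowest and highest line. *Aldh1a1* holds 97.4% in cluster 2 and 19.7% in cluster 1, and the wide bars of cluster 3 rest on a summed level of 2.63.

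The mix could be seen in single cells too. Among cells with at least 10 counts over the 3 genes, *Aldh1a1* had the highest level per kb in 95.3% of such cells of cluster 2 (95% Clopper-Pearson interval 89.3 to 98.5) and 31 of 37 cells of cluster 6 (83.8%, 67.99 to 93.8). Cluster 1 was divided, with *Aldh1a2* leading in 42.4% of cells, *Aldh1a3* in 39.04% and *Aldh1a1* in 18.5%. *Aldh1a3* led in 57.6% of cells of cluster 7 (49.1 to 65.8). In cluster 5 the order was the other way round, with *Aldh1a1* leading in 46.6% (40.6 to 52.6) and *Aldh1a3* in 37.3% (31.6 to 43.2). These intervals cover counting error only, since reads without molecular identifiers are not independent molecules. To compare shares of cells at 1 depth, each cell was thinned to 50000 counts, which left out 11 shallower cells. *Aldh1a1* then had a count in 88.9% of cluster 6 and 83.97% of cluster 2, against 10.0% of cluster 3, the smooth muscle-like cluster with the lowest level. Without thinning the values were 100%, 91.6% and 30.5%. *Aldh1a2* was found in 48.4% of thinned cells of cluster 1, 40% of cluster 6 and 6.11% of cluster 2, the last close to the 5.71% of cluster 3. Unthinned shares for *Aldh1a2* were 69.8%, 53.3%, 28.2% and 21.3%. *Aldh1a3* was found in 57.6%, 54.1% and 48.1% of thinned cells of clusters 1, 7 and 5 and in 9.29% to 18.5% of the other clusters, and unthinned in 78.5%, 76.7%, 74.1% and 22.5% to 45.04%. *Rdh10* was found in 60%, 59.5% and 55.3% of clusters 6, 2 and 1 and in 11.4% of cluster 3 (unthinned 77.8%, 76.3%, 74.9% and 25.5%). Median depth was 240348, 261785, 229006 and 359677 gene counts in clusters 6, 2, 1 and 3. *Aldh1a2* and *Aldh1a3* shared cells: 28.7% of thinned cells of cluster 1 had both, where the product of their shares is 27.9%.

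**Figure D3:**
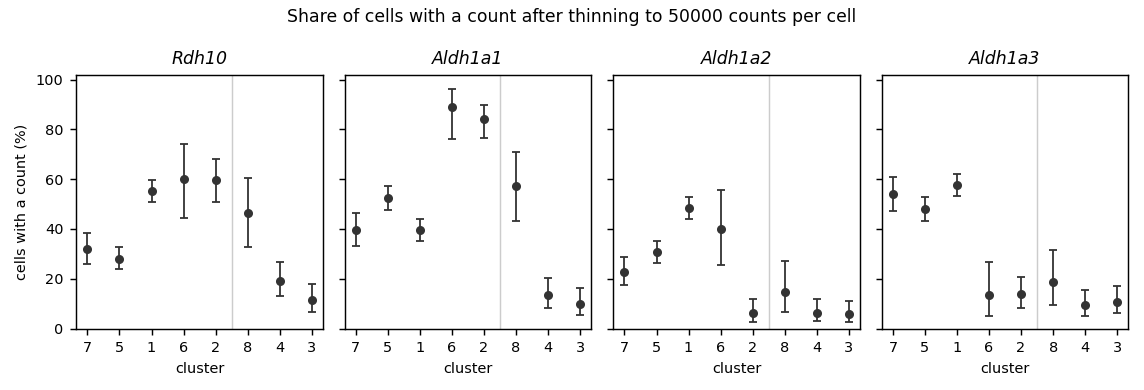
Share of cells with a count of *Rdh10*, *Aldh1a1*, *Aldh1a2* and *Aldh1a3* (vertical axis, %) by cluster after thinning each cell to 50000 counts. Points are shares over all cells of the cluster and bars 95% Clopper-Pearson intervals. *Aldh1a1* reaches 88.9% and 83.97% in clusters 6 and 2, and *Aldh1a3* is at 48.1% or more in clusters 7, 5 and 1.

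*Crabp1* and *Cyp26b1*, the carrier and the degrading enzyme, were sparse. *Crabp1* (ENSMUSG00000032291, chromosome 9, 54764748 to 54773110, plus strand) had 84 counts in 3 cells, of which 81 were in 1 PdgfraGFP cell of cluster 1. No count was seen in any mural cell, which allows a share of cells with a count of up to 0.885% (3 counts over the number of cells). *Cyp26b1* (ENSMUSG00000063415, chromosome 6, 84571414 to 84593908, minus strand) had 1585 counts in 67 cells, 36 of them in cluster 5, and 5 cells held 66.3% of the counts. Its levels in cluster 5 were 2.12 in Acta2GFP, 0 in Cspg4dsRED, 8.16 in PdgfraGFP and 4.19 in PdgfrbGFP. Elsewhere among the fibroblasts no line exceeded 0.429. In cluster 4 a single cell gave Cspg4dsRED 9.45 while PdgfrbGFP had 0, and cluster 3 had 0.390, 0.749 and 0.00795. Of the cells of cluster 5, 8.47% had a count (6.00 to 11.5), and 4.72% after thinning, against 2.13% and 0.714% in cluster 3.

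The receptors *Rara* and *Rarg* were spread over all clusters. *Rara* (ENSMUSG00000037992, chromosome 11, 98927818 to 98974942, plus strand) had 38.7, 33.5, 86.5 and 41.7 in cluster 5 (Acta2GFP, Cspg4dsRED, PdgfraGFP, PdgfrbGFP). It had 38.3, 32.8 and 28.6 in cluster 1, 20.8, 40.2 and 34.7 in cluster 2, and 30.1, 33.6 and 29.7 in cluster 7 (Acta2GFP, PdgfraGFP, PdgfrbGFP). Cluster 6 had 17.4 and 52.3, cluster 4 had 48.6 and 31.3, cluster 8 had 21.5 and cluster 3 had 5.18, 16.5 and 30.9. Means fell between 17.5 (cluster 3) and 50.1 (cluster 5), and neighbours in that order overlapped apart from clusters 7 and 8. *Rarg* (ENSMUSG00000001288, chromosome 15, 102234938 to 102257517, minus strand) was highest in cluster 7, with 46.1, 86.9 and 82.4, and in cluster 5, with 50.9, 49.9, 59.8 and 59.1. Cluster 6 had 24.5 and 61.3, cluster 2 had 43.9, 33.01 and 39.1 and cluster 1 had 26.7, 26.95 and 45.7. Mural values were 38.97 and 5.94 in cluster 4, 18.6 in cluster 8 and 17.7, 17.2 and 19.6 in cluster 3. Every pair of neighbours in the order 7, 5, 6, 2, 1, 4, 8, 3 overlapped.

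*Rarb*, a receptor whose own gene responds to retinoic acid, was low (ENSMUSG00000017491, chromosome 14, 16430839 to 16819156, minus strand). Its 2646 counts came from 7.50% of fibroblasts together with 8.55% of the mural cells, and 5 cells held 43.6% of them. The highest line level was 16.5 in cluster 8, from plates at 21.5 (40 cells) and 0 (12 cells), and 10.7% of cells of that cluster had a count. Next came 10.3 for Cspg4dsRED in cluster 5, where the other lines had 0.901, 3.98 and 0.554. Cluster 2 had 0, 0.0476 and 0.304 and cluster 6 had 0 in both lines. Of 45 cells of cluster 6 none had a count, which allows a share of up to 6.67% by the same rule and 7.87% as the upper Clopper-Pearson bound. Exons of *Rarb* overlap *Top2b* and *Gm48162* on the other strand and counting was not stated to use strand, so reads from the shared bases cannot be told apart from theirs.

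The first question of the study was what separates fibroblasts from mural cells. *Aldh1a2* and *Aldh1a3* rose in fibroblasts, and none of the 8 genes tested fell. *Aldh1a3* was 73.9, 97.96, 39.05 and 93.97 in fibroblasts of Acta2GFP, Cspg4dsRED, PdgfraGFP and PdgfrbGFP and 2.49, 0.964 and 4.37 in mural cells of Acta2GFP, Cspg4dsRED and PdgfrbGFP. *Aldh1a2* was 67.6, 52.9, 40.1 and 54.9 against 9.74, 2.34 and 5.34, and neither gene overlapped between the classes. In edgeR's quasi-likelihood test of summed counts, adjusted by Benjamini-Hochberg over all genes tested, *Aldh1a3* was higher by 5.09 ± 0.69 (log2 fold change ± SE, adjusted p = 0.00302), about 34.1-fold. *Aldh1a2* was higher by 3.58 ± 0.51 (adjusted p = 0.00365), about 11.98-fold, and at 3.46 its adjusted p was 0.0526 without PdgfrbGFP. Leaving out a line moved both, *Aldh1a3* to 4.46 without Cspg4dsRED and *Aldh1a2* to 4.21 without Acta2GFP. These were 2 of the 8 genes tested, *Crabp1* having too few counts, beside 6.57% of all 19173 genes called. With the reporter line as a replicate block 590 in place of 1259 genes were called, both of these among them. In PdgfrbGFP most fibroblasts and most mural cells were on different plates, and the part of plate was not tested. *Aldh1a1* overlapped, at 67.2, 41.97, 120 and 59.6 against 78.7, 1.79 and 11.4. The 78.7 came from Acta2GFP, which holds 52 of the 56 cells of cluster 8, and the difference was 1.68 ± 0.95 (adjusted p = 0.385). *Rdh10* was 51.8, 64.9, 69.95 and 53.6 against 48.2, 25.5 and 22.5 (1.03 ± 0.45, adjusted p = 0.241). *Rarg* was 39.7, 39.7, 45.7 and 54.7 against 17.7, 28.6 and 11.8. Its ranges did not overlap, but its difference of 0.87 ± 0.50 had an adjusted p of 0.387, which became 0.0201 (1.79) without Cspg4dsRED and 0.0472 (1.25) in limma. *Rara* gave 0.43 ± 0.42 (adjusted p = 0.665). The means of *Rarb* (2.54 against 5.37) and *Cyp26b1* (1.16 against 1.81) were lower in fibroblasts, with differences of -1.34 ± 1.13 and -0.77 ± 1.71 (adjusted p = 0.602 and 0.884).

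**Figure D4:**
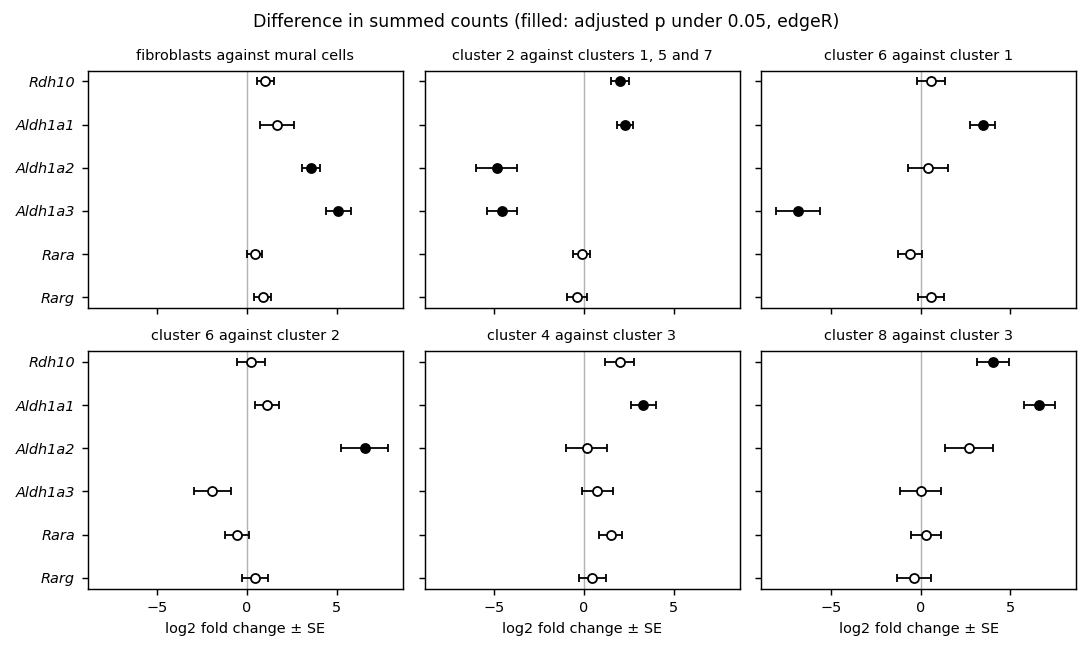
Differences in summed counts for 6 of the 9 genes (horizontal axis, log2 fold change with its SE as bar) in 6 comparisons, positive where the group named first is higher. Filled points have an adjusted p under 0.05 in edgeR's quasi-likelihood test. *Aldh1a2* and *Aldh1a3* lie at 3.58 and 5.09 in fibroblasts against mural cells and at -4.86 and -4.57 in cluster 2 against clusters 1, 5 and 7.

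Cluster 2, the *Tnc*-high and *Cd34*-low fibroblasts, differed in its enzymes from the *Cd34*-high clusters 1, 5 and 7. *Aldh1a1* and *Rdh10* rose and *Aldh1a2* and *Aldh1a3* fell, whereas *Rara* and *Rarg* gave -0.13 ± 0.48 and -0.39 ± 0.55 (edgeR adjusted p = 0.994 and 0.85). *Aldh1a1* was higher by 2.27 ± 0.44 (adjusted p = 0.00281, about 4.82-fold) and *Rdh10* by 2.00 ± 0.52 (adjusted p = 0.0216, about 4.01-fold). The *Rdh10* means were 110.6 in cluster 2 and 77.7, 25.2 and 12.03 in clusters 1, 5 and 7, so cluster 1 lay nearest to cluster 2. *Aldh1a2* fell by 4.86 ± 1.13 (adjusted p = 0.0107, about 29.1-fold) and *Aldh1a3* fell by 4.57 ± 0.85 (adjusted p = 0.00188, about 23.7-fold). These are 4 of 9 genes, beside 6.28% of all 21739 tested. The direction of each held in all 10 alternatives, and the losses of significance came from leaving out a line. Without Acta2GFP the adjusted p was 0.115 for *Aldh1a1*, 0.186 for *Aldh1a2*, 0.0742 for *Aldh1a3* and 0.0835 for *Rdh10*. Without PdgfraGFP it was 0.0706 for *Aldh1a1* and 0.104 for *Aldh1a2*, and without PdgfrbGFP 0.275 for *Rdh10*. The sizes moved too, *Aldh1a2* to -4.02 without PdgfraGFP and -6.35 without PdgfrbGFP and *Aldh1a3* to -6.02 without PdgfrbGFP. *Rarb* had -4.19 ± 1.98 (adjusted p = 0.289), with 0.0494 in DESeq2. Markers of other cells moved in this comparison too. *Ano1* rose by 6.82 ± 0.99 (edgeR adjusted p = 0.000145), while *Kit* was at most 1.497 in cluster 2. Of the cluster 8 markers, *Rgs10* rose by 3.55 ± 0.44 (adjusted p = 2.19e-05) and *Hhip* fell by 3.36 ± 0.89 (adjusted p = 0.0263). The part of these cells in the results was not tested.

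Cluster 6 had high *Aldh1a1*, as cluster 2, and by its mean high *Aldh1a2*, as cluster 1. *Aldh1a2* was uneven there, at 210.8 in Acta2GFP and at 1.89 (14 cells) and 65.8 (12 cells) on the PdgfraGFP plates. Against cluster 1, *Aldh1a1* was higher by 3.46 ± 0.70 (edgeR adjusted p = 0.0294, about 11.02-fold) and *Aldh1a3* fell by 6.84 ± 1.24 (adjusted p = 0.0169, about 114.7-fold), while *Aldh1a2* was at 0.42 ± 1.11 (adjusted p = 0.918). Against cluster 2, *Aldh1a2* was higher by 6.56 ± 1.31 (adjusted p = 0.0172, about 94.7-fold) and *Aldh1a1* was at 1.10 ± 0.67 (adjusted p = 0.49). These were 2 and 1 of the 9 genes, beside 0.791% of all genes for cluster 6 against 1 and 0.957% for cluster 6 against 2. The median over all genes was -0.47 in cluster 6 against 1 and -0.11 with DESeq2 scaling, which kept these 3 calls. Of 45 thinned cells 17 held both *Aldh1a1* and *Aldh1a2* (37.8%, product of the shares 35.6%). The calls rest on 10 cells of Acta2GFP and 26 of PdgfraGFP. Without Acta2GFP the adjusted p was 0.47 for *Aldh1a1* and 0.263 for *Aldh1a3* against cluster 1 and 0.465 for *Aldh1a2* against cluster 2. The difference in *Aldh1a2* was then 5.03 (about 32.6-fold), and 7.99 (about 253.6-fold) without PdgfrbGFP, and that in *Aldh1a3* was -7.83 without Acta2GFP. Without PdgfraGFP the adjusted p-values were 0.148, 0.14 and 0.0665, and without PdgfrbGFP 0.0624 for *Aldh1a1*. Summed smooth muscle markers (*Acta2*, *Myh11*, *Cnn1*) were 489 to 1436 in cluster 6 against 85.9 to 270 in cluster 1 and 101.5 to 311.6 in cluster 2, and their part in these results was not tested.

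Among the *Cd34*-high clusters, 5 was compared with 7 and 1 with 5. Cluster 5 against 7 gave no call among the 9 genes in edgeR, DESeq2 or limma, beside 0.0138% of all genes in edgeR. In edgeR 1 of the 9 genes (*Cyp26b1*, 7.03 ± 2.52, adjusted p = 0.783) had an unadjusted p under 0.05, beside 1365 of all 21739 genes. Cluster 1 against 5 gave none in the 3 tools with lines as samples, beside 0.184% in edgeR. There 4 genes had an unadjusted p under 0.05 in edgeR, beside 1682 of all 21739. Among these 4, *Rdh10* was at 2.23 ± 0.66 (adjusted p = 0.319) and *Aldh1a2* at 2.20 ± 0.95 (adjusted p = 0.602) in edgeR. The other two were the sparse *Crabp1* and *Cyp26b1*. With plates as samples, *Rdh10* (2.78, edgeR adjusted p = 0.00173) and *Cyp26b1* (-6.52, adjusted p = 0.0202) passed, beside 2.36% of all genes. However, plates of 1 line are not shown to be separate mice. The line ranges of *Aldh1a2* and *Rarg* were apart between clusters 1 and 5, and those of *Aldh1a2*, *Rdh10* and *Rarg* between clusters 1 and 7, a pair that was not tested. How many of all genes had ranges apart was not counted, so this describes the levels only.

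Within the mural cells, *Aldh1a1* and *Rdh10* were higher in cluster 8 than in cluster 3. In cells of Acta2GFP, *Aldh1a1* was 125.7 in cluster 8 and 2.14 in cluster 3, and *Rdh10* was 72.02 and 10.4. On the 2 plates of that line with at least 10 cells of each cluster, *Aldh1a1* was 128.02 against 1.32 and 117.9 against 2.64, and *Rdh10* was 78.8 against 21.1 and 49.3 against 3.86. Cluster 8 gave 1 sum, so the test takes its spread from the other clusters, and its p-values assume that this line varies as the others do. The edgeR differences were 6.62 ± 0.84 for *Aldh1a1* (adjusted p = 0.000227, about 98.3-fold, called in all 9 alternatives) and 4.03 ± 0.91 for *Rdh10* (adjusted p = 0.0313, about 16.4-fold), 2 of 9 genes beside 1.01% of all. With the replicate block *Rdh10* had an adjusted p of 0.0515, without Cspg4dsRED 0.0995, without PdgfrbGFP 0.24 and in limma 0.158. Pericyte-like cluster 4 had more *Aldh1a1* than cluster 3, by 3.32 ± 0.71 (adjusted p = 0.0293, about 9.99-fold), 1 of 9 genes beside 0.819%. That call was lost with sums from 3 cells (0.128), in limma (0.149), without Acta2GFP (0.281), without PdgfraGFP (0.0587) and without PdgfrbGFP (0.652, at 1.33). Summed fibroblast markers were 488 to 546 in cluster 4, 652 in cluster 8 and 91.1 to 264.7 in cluster 3, and their part in these results was not tested.

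A pathway list of 49 other genes was tested in the same comparisons. Of 36 tested between fibroblasts and mural cells, 2 rose and 1 fell, beside 6.57% of all genes called (3.21% higher and 3.36% lower), with a median log2 fold change of 0.02 beside -0.03 over all genes. *Adh1*, an alcohol dehydrogenase that oxidises retinol, was higher by 4.98 ± 0.81 (edgeR adjusted p = 0.00667, and 0.0561 without Acta2GFP), and by 5.74 without PdgfrbGFP. *Fabp5*, a lipid carrier that also binds retinoic acid, fell by 4.41 ± 1.00 (adjusted p = 0.0293), but its adjusted p was 0.212 with the replicate block and 0.0769 to 0.136 without any 1 line. It stood at -3.30 without Cspg4dsRED.

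In cluster 2 against clusters 1, 5 and 7, 1 of 39 tested genes of the list rose and 4 fell, beside 4.42% of all genes higher and 1.86% lower (4.35% and 5.12% in DESeq2), with a median of -1.03 beside -0.09 over all genes. *Adh1* was 0.901, 0.937 and 13.9 in cluster 2 against 154.98, 215.4 and 188.04 in cluster 1 and 184.5, 88.4, 295.5 and 190.9 in cluster 5. Cluster 7 was lower and more spread, at 23.1, 152.7 and 48.3. It fell by 4.31 ± 1.00 (edgeR adjusted p = 0.0108), and in cluster 6 against 1 it fell by 7.15 ± 1.495 (adjusted p = 0.0321). *Rarres1*, named as a retinoic acid receptor responder, was 42.02, 46.002 and 82.1 in cluster 2 and 46.2 in cluster 8, with at most 4.46 in any other line and cluster. It rose by 5.41 ± 1.10 (adjusted p = 0.00387, and 0.071 without PdgfrbGFP), and by 6.19 without Acta2GFP. *Meis1* and *Meis2*, homeobox genes known to respond to retinoic acid in embryos, fell by 2.04 ± 0.44 and 2.73 ± 0.70 (adjusted p = 0.00626 and 0.0213).

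Among the genes known to respond to retinoic acid elsewhere, 1 rose and 2 fell in cluster 2 of 9 tested. Over all genes 4.42% were called higher and 1.86% lower. The median log2 fold change of the 9 was -2.73, beside -0.09 over all genes, and their direction as a set was not tested. The calls of *Adh1*, *Meis1* and *Meis2* in cluster 2 were lost without Acta2GFP (adjusted p 0.146, 0.128 and 0.148) and without PdgfraGFP (0.118, 0.108 and 0.148). Without PdgfrbGFP those of *Meis1* and *Meis2* were lost as well (0.067 and 0.135), and with sums from 3 cells all 3 were (0.0519 for *Adh1*, 0.241 for *Meis1* and 0.119 for *Meis2*). The difference in *Adh1* was -3.42 without PdgfraGFP and -6.91 without PdgfrbGFP. For *Adh1* in cluster 6 against 1 the adjusted p was 0.384 without Acta2GFP, 0.184 without PdgfraGFP and 0.0868 with sums from 3 cells, where the difference was -5.16. In cluster 8, *Rarres2*, the chemerin precursor, was 697 against 194.002, 95.5 and 206.2 in cluster 3 and rose by 2.11 ± 0.34 (adjusted p = 0.00197), 1 of 39 genes beside 1.01% of all, again with 1 sum for cluster 8. No gene of the list was called in cluster 5 against 7, 1 against 5, 6 against 2 or 4 against 3 by edgeR. Of its 39 tested genes 3, 9, 5 and 7, in that order, had an unadjusted p under 0.05. Over all 21739 genes these numbers were 1365, 1682, 3144 and 2756. DESeq2 called 0, 3, 1 and 3 genes of the list there, beside 0.856%, 1.4%, 8.97% and 5.57% of all genes. In limma 0, 2, 2 and 1 were called, beside 0.281%, 0.975%, 4.08% and 3.24% of all genes.

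**Figure D5:**
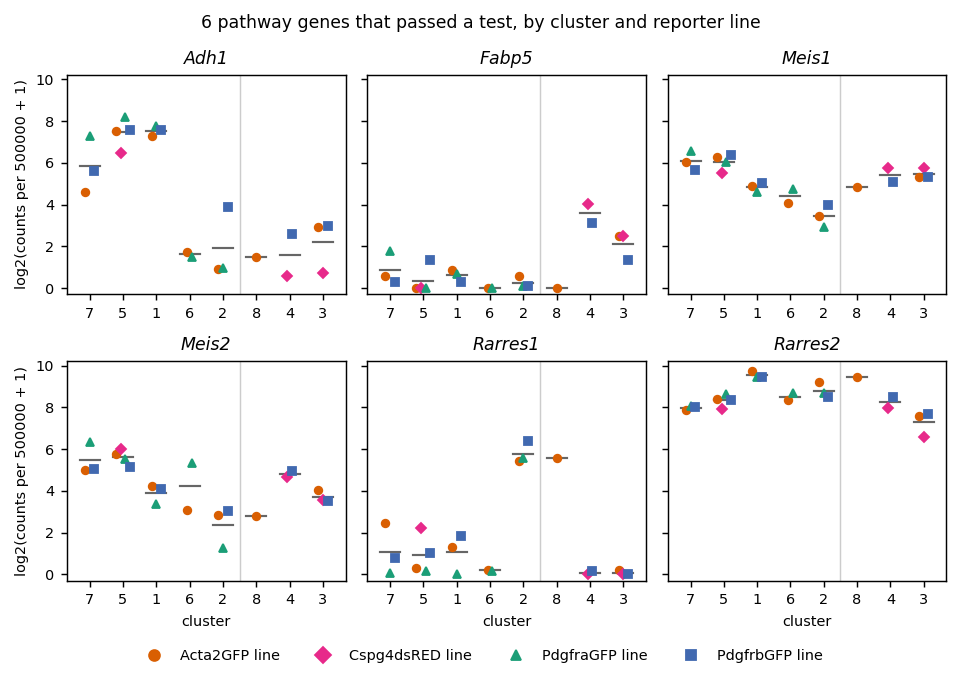
Level of 6 other pathway genes that passed a test, as log2(counts per 500000 + 1), in each cluster (horizontal axis, fibroblasts left of the grey line). Points are reporter lines and bars the means of the points. *Adh1* is high in clusters 7, 5 and 1, and *Rarres1* is above 40 counts per 500000 only in clusters 2 and 8.

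Genes with the most similar pattern over the 21 line and cluster combinations were ranked by Pearson's r of log2(level + 1) among 13671 genes. *Aldh1a1* was closest to *Srpx2* (r = 0.90), *Bmp4* (0.88) and *Wnt5a* (0.88). *Aldh1a2* was closest to *Slc27a3* (0.90), *Lrrn2* (0.89) and *Selenbp1* (0.87), and *Aldh1a3* to *Gabra3*, *Lepr* and *Gm16897* (0.97 each). *Rdh10* was closest to *Arhgap28* (0.91), *Chst2* (0.86) and *Hs3st3b1* (0.86). The values were lower for the receptors, at 0.82 or less for *Rara* (*Clic1* first) and 0.78 or less for *Rarg* (*Tmem198b* first). The combinations share lines, plates and depth, so these are descriptions without a test.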

How the data were processed

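The deposited table held raw counts per gene and cell, which the authors made by trimming the reads, aligning them to GRCm38 with TopHat2 and Bowtie and counting exons with featureCounts, not stated to be stranded. Rows of 92 spike-in RNAs (1.36% of counts) were left out. Each cell was scaled to 500000 gene counts for levels and averaged per reporter line and cluster. For tests, counts were summed over cells of a line and cluster (at least 10 cells) and compared by edgeR 4.0.16 (TMM, filterByExpr, quasi-likelihood test, Benjamini-Hochberg over all genes tested, threshold 0.05) in R 4.3.3. The cluster comparisons shared 1 fit of 21 sums, and fibroblasts and mural cells had their own fit of 4 and 3 sums. The code was tested on simulated data. Alternatives were DESeq2 1.42.0, no filter, the line as replicate block, sums from 3 cells, plates as samples, limma 3.58.1 on log2(mean count per 500000 + 1), and each line left out.

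Cells of 1 line share plates, so the line pairs the sums. Deviations from the group means correlated within lines at 0.152 to 0.175 between fibroblasts and mural cells and at 0.0381 to 0.215 between clusters. The 9 genes were given by name. The pathway list (49 genes in 5 groups) is named where a gene passed a test, and some of its genes are not reported here. The genes and lists were chosen with earlier results of these data known. Per kb levels used the longest transcript that GENCODE tags as principal.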

Additional observations from a re-analysis of the deposited data

Results flagged for a closer look

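In the 17 groups of 4 lines with differing values, 3 single lines stood far from the other 3 by Dixon's test, where chance marks about 1 in 20 groups. *Rara* in cluster 5 was 86.5 counts per 500000 in PdgfraGFP and 33.5 to 41.7 in the other lines. *Rdh10* in cluster 5 was 58.4 in Cspg4dsRED, from 13 cells, and 12.4 to 16.7 elsewhere. *Crabp1* in fibroblasts was 0.833 in PdgfraGFP and 0 to 0.0395 in the other lines.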

How the results depend on the processing

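No fold change of a called gene turned its direction under any alternative. Of the counts of the 9 genes called, those that moved by over 1.5 times or from 0 with all lines in the fit were cluster 1 against 5 with plates as samples (2 in place of 0), pericyte-like cluster 4 against 3 with sums from 3 cells and with limma (0 in place of 1), and cluster 8 against 3 with the replicate block and with limma (1 in place of 2). Smaller moves were 3 in place of 2 for fibroblasts against mural cells with limma (*Rarg* added) and 5 in place of 4 for cluster 2 with DESeq2 (*Rarb* added). The replicate block changed no other count, giving 2 for fibroblasts against mural cells and 4 for cluster 2 against 1, 5 and 7. Leaving out 1 line gave 1 to 3 calls for fibroblasts against mural cells, 0 to 4 for cluster 2, 0 to 0 for cluster 5 against 7 and 1 against 5, 0 to 2 for cluster 6 against 1, 0 to 1 for cluster 6 against 2 and cluster 4 against 3, and 1 to 2 for cluster 8 against 3, which has no value without Acta2GFP. The causes were not tested. DESeq2 called more of all genes tested than edgeR, with 15.5% in place of 6.57% for fibroblasts against mural cells, 9.48% in place of 6.28% for cluster 2, 0.856% in place of 0.0138% for 5 against 7, 1.4% in place of 0.184% for 1 against 5, 7.7% in place of 0.791% for 6 against 1, 8.97% in place of 0.957% for 6 against 2, 5.57% in place of 0.819% for 4 against 3 and 5.14% in place of 1.01% for 8 against 3. The share called higher and lower was 4.42% and 1.86% in edgeR for cluster 2 (DESeq2 4.35% and 5.12%, limma 3.58% and 3.76%), 0.129% and 0.0552% for 1 against 5 (DESeq2 0.676% and 0.727%), 0.621% and 0.198% for 4 against 3 (DESeq2 2.96% and 2.61%) and 0.879% and 0.129% for 8 against 3 (DESeq2 2.38% and 2.76%). Levels of the 9 genes in the 7 clusters with more than 1 line stayed within 1 SD of the lines in 61 of 63 cases when averaged over all cells and in 54 of 63 when taken from summed counts. Thinning moved 51 of 72 shares of cells outside their interval. Genes with few counts (*Crabp1*, *Cyp26b1*, *Rarb*) are limited by depth, and clusters 4, 6 and 8 by having 2, 2 and 1 lines, cluster 8 also by the lowest median depth (118251.5 gene counts).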
